A study of Mus musculus with 12 samples.

Results

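The lipid-associated macrophage markers are 10 genes whose transcripts mark macrophages that take up lipid in obese fat and in fatty liver: Gpnmb, Spp1, Trem2, Cd9, Itgax, Lgals3, Cd63, Tyrobp, Clec7a and Atp6v0d2. They were taken by gene name from the deposited table of each obesity model, where they accounted for 17 of 62486 transcripts in the dietary model and 16 of 62945 in the genetic model. The rule uses gene names alone, but the genes were chosen with earlier results of these data known, so their counts do not come from a blind list. All 10 genes had at least 1 transcript listed in both tables. The authors' run gave the status OK, called tested here, to transcripts of 8 members in the dietary model and 5 in the genetic model.

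Liver RNA of 12 mice was sequenced, with 3 livers in each of 4 groups per the labels. HFD mice carried a wild-type genotype and had eaten a diet with 54 kJ% of fat for 30 weeks, and CD mice (NCD in the labels) were wild type and ate a diet with 11 kJ% of fat. db mice carry the Leprdb allele, which removes the long form of the leptin receptor, and misty mice, which carry the Dock7m coat colour allele, served as their lean controls on the 11 kJ% diet. The labels give C57BL/6 as the strain of every mouse and 36 weeks as the age, whereas the study's methods place db and misty on the BKS.Cg background, give them a younger age and another number of animals, and describe all mice as male. The genotype field of the misty livers reads Dock7m +/+ Leprdb, which is close to the name of the db stock, so the field does not separate the groups by itself and the group names were followed.

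Macrophages that meet lipid or dying cells switch on a set of genes for uptake, lysosomal breakdown and repair. TREM2, a surface receptor for lipids and lipoproteins, signals through the adaptor DAP12, which Tyrobp encodes, and the programme that follows includes the galectin and tetraspanin genes and the glycoprotein gene Gpnmb. In fatty liver such cells gather around dying hepatocytes and scar tissue as monocyte-derived macrophages take places left by resident Kupffer cells. None of these genes belongs to macrophages alone. Bile duct cells also make osteopontin, the product of Spp1, and many cell types carry Cd9 and Cd63.

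RefSeq promoter windows (GRCm38.p6, 250 bases before to 50 after each start) were at hand for 8 members, with 10 windows in all, and Atp6v0d2 and Tyrobp were not matched. The AP-1 motif was searched on either strand in the loose form TGANTCA, with N as any base. It matched in the windows of Gpnmb, Itgax and Trem2, that is in 3 of 10 windows, against 7.81% of all 32851 promoters. TGACTCA in Gpnmb and TGAGTCA in Itgax are the same letters read from opposite strands, whereas TGAATCA in Trem2 differs from them. The MITF and TFE motif CACGTG was in 0 of 10 windows and in 7.15% of all promoters, and the PU.1 motif GAGGAAGT was in the Spp1 window alone and in 3.20% of all promoters. No member window held more than 1 of these motifs. A match is a description of the letters and not a site of binding. The stretches below are bases 181 to 300 of the windows of Gpnmb, Itgax and Trem2, printed 5′ to 3′ with the match in capitals. They lie on the plus strand at chr6:49036448-49036567 (Gpnmb), chr7:128129480-128129599 (Itgax) and chr17:48346331-48346450 (Trem2).
Gpnmb: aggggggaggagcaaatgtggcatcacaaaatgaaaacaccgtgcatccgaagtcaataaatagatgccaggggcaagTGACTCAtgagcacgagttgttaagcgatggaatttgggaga
Itgax: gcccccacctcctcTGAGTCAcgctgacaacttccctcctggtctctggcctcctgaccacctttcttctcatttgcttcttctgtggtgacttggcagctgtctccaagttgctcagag
Trem2: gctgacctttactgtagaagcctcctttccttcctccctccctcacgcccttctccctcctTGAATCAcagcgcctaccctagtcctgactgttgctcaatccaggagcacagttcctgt

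Each table holds a single FPKM (sequenced fragments per transcript, scaled to its length and to the library) per group, pooled by the authors over its livers. No spread between livers, no depth and no test can be had from such values, so every ratio below compares the 2 pooled values of a table and has no replicate check. The tables were normalized separately, and levels were compared within a table only, except for the hepatocyte genes Cyp2e1 and Ttr. Each line stands for 1 assembled locus and gives 1 of its transcripts, although 34.6% of loci in the dietary and 34.2% in the genetic table held several transcripts, so the values are not gene totals. A member is given by its most abundant tested transcript. The leptin receptor gene Lepr, as a check of the labels, was listed at 0.106 FPKM in db and 0.535 FPKM in misty at the locus on its own strand, with 4 other tested transcripts also lower in db. Lepr was also lower in HFD, at 0.879 FPKM, than in CD livers, at 1.33 FPKM. A lower level is therefore not particular to db, and the check cannot establish the genotype.

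In the dietary model, all 8 tested members were at least 2-fold higher in HFD than in CD livers. Of all 11914 genes with a ratio, 9.02% were that much higher, and 4.07% were at least 2-fold lower. Among the 9996 genes whose mean level lay within the members' range of 0.273 to 22.2 FPKM, 7.47% were at least 2-fold higher. The member ratios ran from 1.11 to 3.50 on the log2 scale with a median of 2.11, beside a median of -0.01 over all genes, and 5 members passed 4-fold. In the genetic model, 1 of 5 tested members, Atp6v0d2, was at least 2-fold higher in db than in misty livers, beside 8.65% of all 11447 genes and 7.01% of the 8974 genes within the members' range of mean level. At least 2-fold lower were 0 members and 6.73% of all genes. The member median was 0.75 on the log2 scale in db over misty, and all 5 ratios were above 0, the lowest by 0.01. A transcript could be tested with a group below 0.01 FPKM, as 160 of 19834 were in the dietary and 272 of 19918 in the genetic model. A low member can therefore enter these counts through its higher group, as Gpnmb in HFD and Atp6v0d2 in db may have. The filter was the same for all genes, but what part it had in the counts was not tested.

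**Figure D1:**
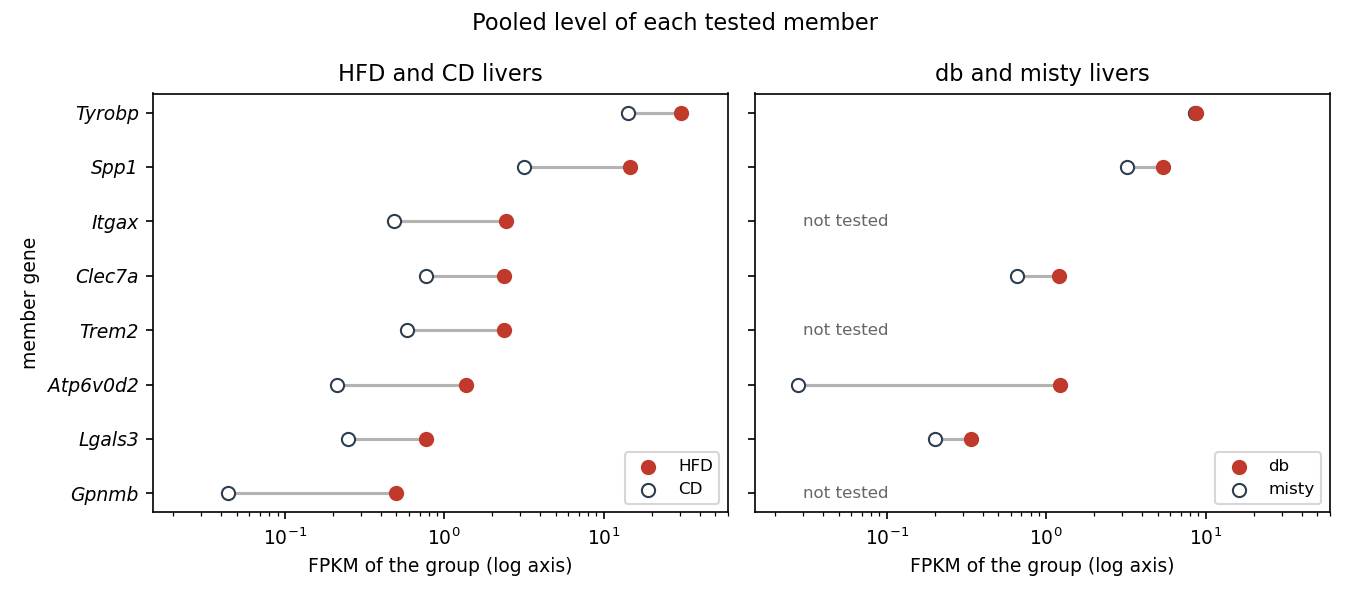
Pooled FPKM (log axis) of the most abundant tested transcript of each member, in HFD (filled) and CD (open) livers on the left and in db (filled) and misty (open) livers on the right. Each point is 1 pooled value with no error. Tyrobp and Spp1 are the highest members in both tables, every HFD point lies to the right of its CD point, and the db and misty points of Tyrobp coincide.

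The receptors come first. Trem2 (chr17:48346401-48354147, plus strand, GRCm38) was at 2.36 FPKM in HFD and 0.581 FPKM in CD livers, a ratio of 4.06. Its db level was 0.167 FPKM and its misty level 0.127 FPKM, and the transcript was not tested there. Tyrobp (chr7:30413760-30417585, plus strand), the DAP12 adaptor that passes on the signal of TREM2 and of several other myeloid receptors, was the highest member, at 30.4 FPKM in HFD and 14.1 FPKM in CD livers. This 2.16-fold ratio was the lowest of the 8 members. In db livers Tyrobp was at 8.66 FPKM, against 8.61 FPKM in misty livers, so the pooled values of the genetic model were near equal for the adaptor.

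Itgax (chr7:128129547-128150657, plus strand) encodes CD11c, the alpha chain of a beta-2 integrin found on dendritic cells and on macrophages of obese tissue. It was at 2.43 FPKM in HFD and 0.485 FPKM in CD livers, a 5.02-fold ratio. In db livers the listed transcript was at 0.168 FPKM, against 0.0713 FPKM in misty livers. That pair has a ratio of 2.35 but did not reach the authors' minimum for testing. Clec7a (chr6:129461591-129472779, minus strand) encodes Dectin-1, a receptor for fungal beta-glucan. Clec7a was at 2.36 FPKM in HFD and 0.773 FPKM in CD livers, and at 1.21 FPKM in db and 0.657 FPKM in misty livers. The ratios were 3.06 in the dietary and 1.84 in the genetic model, and the annotation in the table classes this transcript as a polymorphic pseudogene.

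Of the secreted and surface proteins, Spp1 (chr5:104435118-104441050, plus strand), which encodes the matrix protein and cytokine osteopontin, was second in level. It was at 14.5 FPKM in HFD and 3.18 FPKM in CD livers, a 4.58-fold ratio. In db livers it was at 5.40 FPKM, against 3.22 FPKM in misty livers, a ratio of 1.68. Gpnmb (chr6:49036546-49070929, plus strand), a transmembrane glycoprotein of lysosomes and the cell surface, had the highest member ratio in HFD over CD, 11.3, from levels of 0.501 FPKM in HFD and 0.0442 FPKM in CD livers. The CD level is close to 0, and with 0.1 FPKM added to both values the log2 ratio was 2.06 in place of 3.50. With 1 FPKM added it was 0.52, which is below 2-fold. The only Gpnmb transcript of the genetic table, one with a retained intron, was listed at 0 in db and in misty and was not tested. Lgals3 (chr14:47367751-47386160, plus strand), the galectin-3 gene, was at 0.774 FPKM in HFD and 0.249 FPKM in CD livers, and at 0.336 FPKM in db and 0.202 FPKM in misty livers. The ratios were 3.10 and 1.66, from the transcript Lgals3-001 in the dietary and Lgals3-003 in the genetic model. No listed Lgals3 level reached 1 FPKM in any group. The transcript at the locus on the gene's own strand was listed near 0 in all groups and was not tested.

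Atp6v0d2 (chr4:19876841-19922605, minus strand) encodes a d subunit of the membrane part of the proton pump that acidifies lysosomes, a form found in macrophages, osteoclasts and a few other cell types. It was at 1.36 FPKM in HFD and 0.212 FPKM in CD livers, a 6.40-fold ratio. In db livers it was at 1.23 FPKM, against 0.0278 FPKM in misty livers, a 44.0-fold ratio that ranked 16 from the highest of 11447 genes. The misty level is again close to 0, and with 1 FPKM added to both values the log2 ratio was 1.11 in place of 5.46. Cd9 and Cd63, tetraspanins of the cell surface and of late endosomes, were listed under 0.01 FPKM in all 4 groups through transcripts that were not tested, so their levels could not be read from these tables.

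**Figure D2:**
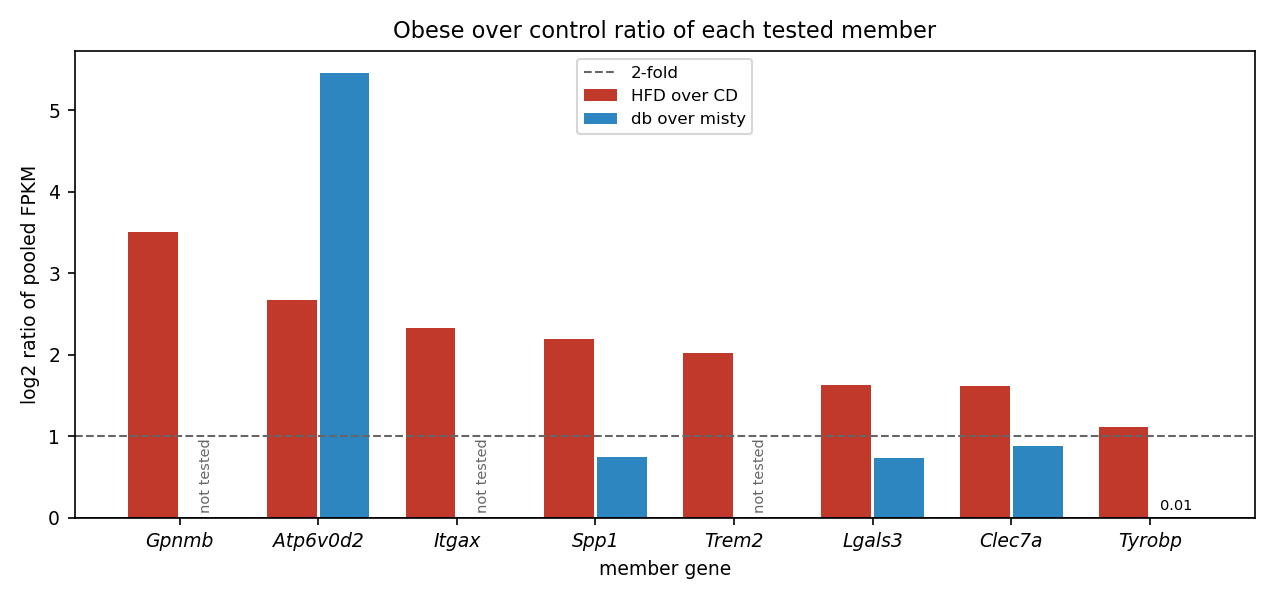
Log2 ratio of pooled FPKM for each tested member, HFD over CD (left bar of each pair) and db over misty (right bar), with the 2-fold line dashed. All 8 bars of the dietary model pass the line, and of the genetic model 1 does, Atp6v0d2, while Gpnmb, Itgax and Trem2 had no tested transcript there.

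Ranked from the highest ratio of HFD over CD among 11914 genes, Gpnmb stood at 63, Atp6v0d2 at 134, Itgax at 205, Spp1 at 239 and Trem2 at 297, followed by Lgals3 at 441, Clec7a at 451 and Tyrobp at 938. In db over misty, Clec7a ranked 1194, Spp1 1480, Lgals3 1527 and Tyrobp 5640 of 11447. The 5 members tested in both tables were Atp6v0d2, Spp1, Lgals3, Clec7a and Tyrobp. All of them passed 2-fold in HFD over CD and 1 did in db over misty. Atp6v0d2 was the only one with the higher ratio in the genetic model. Whether the models differ could not be tested, since each ratio is 1 value. The study's methods also give the HFD and CD livers another sequencing centre, library kit and read length than its other cohorts. A difference between the models therefore cannot be told apart from one of library preparation and sequencing.

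The strand of the loci limits these values. Locus numbers run along each chromosome in separate runs, taken here as the plus, the minus and the unstranded assembly, and by that order 7 of the 12 tested member transcripts in the dietary model and 5 of 6 in the genetic model sat at loci on the strand opposite to their gene. So did 54.4% and 54.5% of all annotated tested transcripts, whereas 97.3% and 97.5% of those not tested were on the gene's own strand. Spp1, Gpnmb, Lgals3, Clec7a and Atp6v0d2 had their most abundant tested transcript at such a locus, and Trem2, Itgax and Tyrobp on their own strand. Why tested loci lie on the opposite strand was not tested.

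In HFD over CD, 3 members were tested on both strands, and all of their ratios were above 2-fold. Their less abundant transcripts were low in CD livers, at 0.113 to 0.161 FPKM, and may have been tested through their HFD level. A ratio above 2-fold at such a transcript is therefore not a separate check of the more abundant one. Itgax had log2 ratios of 2.33 on its own strand and of 1.74 and 1.82 at 2 opposite loci. Clec7a had 1.69 on its own strand, from 0.518 FPKM in HFD and 0.161 FPKM in CD livers, and 1.61 at the opposite locus. Spp1 had 1.498 on its own strand, from 0.334 FPKM in HFD and 0.118 FPKM in CD livers, and 2.19 at the far more abundant opposite locus, which is more than 1.5-fold apart. In the genetic model Tyrobp was the member tested on both, with 0.01 on its own strand and -0.49 at an opposite locus of 0.163 FPKM in db and 0.230 FPKM in misty livers. Over all 2615 genes tested on both strands in the dietary model, the log2 ratios were within 1.5-fold of each other for 80.1%, with a correlation across genes of 0.667. In the genetic model, 70.4% of 2469 such genes were within 1.5-fold, with a correlation of 0.52. The Atp6v0d2 locus on its own strand was listed near 0 in HFD and at 0.128 FPKM in CD livers, and near 0 in db and at 0.00417 FPKM in misty livers, and was not tested. Summed over both strands, Atp6v0d2 had a log2 ratio of 2.00 in HFD over CD.

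**Figure D3:**
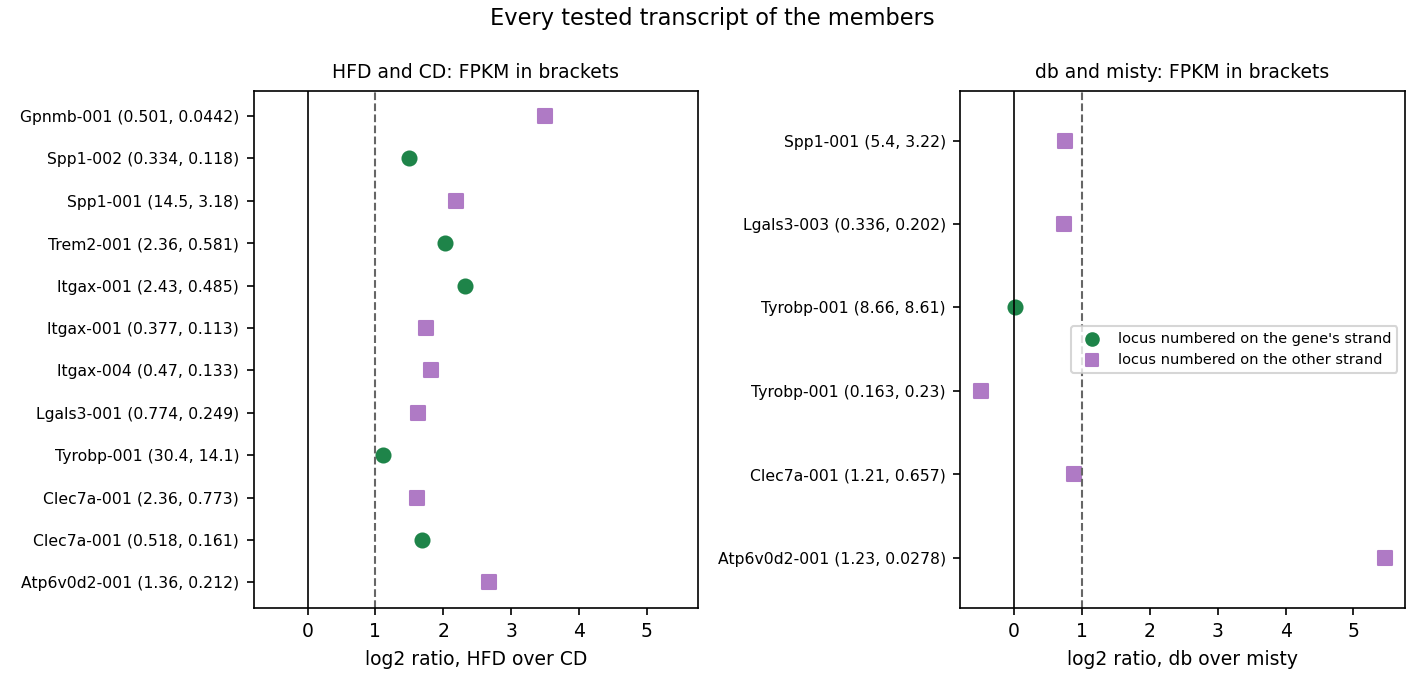
Log2 ratio of every tested transcript of the members, HFD over CD on the left and db over misty on the right, with the pooled FPKM in brackets (obese group first). Circles are loci on the gene's own strand and squares loci on the other strand. The 12 points of the dietary model come from 8 genes, and all lie to the right of the dashed 2-fold line. The 6 points of the genetic model come from 5 genes, and 1 does. Points of the same gene are not separate results. Counted by gene, 9.02% of all genes passed the line in HFD over CD and 8.65% in db over misty. The share of all tested transcripts was not computed.

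The partners of the receptors were read from fixed lists. List counts are of tested genes with at least 0.01 FPKM in both groups, called genes with a ratio, which left out 5 tested list genes that are given with their values where their list is described. Of 12 genes with a ratio among 20 TREM2 and DAP12 signalling partners, 5 were at least 2-fold higher in HFD than in CD livers and 0 lower, with a median of 0.90 on the log2 scale. Ms4a6d, of the MS4A family linked to TREM2, was at 4.26 FPKM in HFD and 1.24 FPKM in CD livers. Syk, the kinase recruited by DAP12, was at 2.16 FPKM in HFD and 1.05 FPKM in CD livers. In the genetic model 0 of 10 partners with a ratio passed 2-fold in either direction, and the median was -0.19.

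Among the CD11c integrin partners, 3 of 4 genes with a ratio were at least 2-fold higher in HFD than in CD livers. Itgb2, the beta chain that pairs with CD11c, was at 8.22 FPKM in HFD and 2.91 FPKM in CD livers, and Icam1, an adhesion ligand of these integrins, was at 1.67 FPKM in HFD and 0.791 FPKM in CD livers. The list had 0 of 3 past 2-fold in db over misty. Of 7 osteopontin receptors, Cd44 passed 2-fold in HFD over CD, with 8.57 FPKM in HFD and 3.80 FPKM in CD livers, and 0 of 7 did in db over misty. Dectin-1 signalling genes had 0 of 5 past 2-fold in HFD over CD and 1 of 5, lower, in db over misty.

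Relatives of the members gave mixed ratios. Of 12 tetraspanins with a ratio, 3 were at least 2-fold higher and 1 lower in HFD than in CD livers, the lower one being Tspan33, at 0.995 FPKM in HFD and 2.73 FPKM in CD. In db over misty the counts were 2 higher and 1 lower of 10, with Tspan3 at 2.73 FPKM in db and 1.29 FPKM in misty livers and Cd81 at 174.2 FPKM in db and 85.7 FPKM in misty livers. Cd151, tested but with no ratio, was listed at 0 in db and at 0.254 FPKM in misty livers. Of the galectin list, 1 of 4 genes passed in HFD over CD, Lgals1, at 68.4 FPKM in HFD and 12.6 FPKM in CD livers. In db over misty 1 of 3 was higher and 1 lower, the lower one being Lgals3bp, a galectin-3 ligand, at 2.81 FPKM in db and 5.79 FPKM in misty livers. Of the proton pump subunits with a ratio, 0 of 11 passed 2-fold in HFD over CD and 0 of 10 in db over misty. Atp6v0a1, tested but with no ratio, was listed near 0 in db and at 0.276 FPKM in misty livers. Atp6v0d1, the d subunit that most cells use, was at 33.2 FPKM in HFD and 33.2 FPKM in CD livers, and at 35.5 FPKM in db and 34.1 FPKM in misty livers. The MITF and TFE factors, which drive lysosomal genes, had 0 of 4 past 2-fold in either model.

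Lysosomal and lipid genes that the same macrophages carry were at least 2-fold higher in HFD than in CD livers for 9 of 27 with a ratio, with 0 lower and a median of 0.68. Lpl, which splits triglyceride for uptake, was at 2.55 FPKM in HFD and 0.772 FPKM in CD livers, Emp1 was at 3.61 FPKM in HFD and 1.12 FPKM in CD livers, and Anxa5, which binds phosphatidylserine, was at 121.7 FPKM in HFD and 41.5 FPKM in CD livers. In db over misty 3 of 26 were higher and 2 lower, with a median of 0.36. Cd36, a fatty acid receptor that hepatocytes also carry, was at 10.7 FPKM in db and 0.684 FPKM in misty livers, Anxa5 was at 76.2 FPKM in db and 36.8 FPKM in misty livers, and Fabp5 was at 4.25 FPKM in db and 8.52 FPKM in misty livers.

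Markers of whole cell types differed beside the members. In a whole-liver sample, more cells of a type and more RNA per cell cannot be told apart. Of 13 general macrophage and monocyte markers with a ratio among 18, 11 were at least 2-fold higher in HFD than in CD livers with a median of 1.20, and the summed level was 131.3 FPKM in HFD and 56.3 FPKM in CD. Csf1r, the receptor for the macrophage growth factor CSF1, was tested but had no ratio, at 0.660 FPKM in HFD and 0.00222 FPKM in CD livers. Ccr2, the monocyte chemokine receptor, was at 1.56 FPKM in HFD and 0.477 FPKM in CD livers, Cybb at 12.3 FPKM in HFD and 4.79 FPKM in CD livers, and Lyz2, the myeloid lysozyme, at 62.6 FPKM in HFD and 24.7 FPKM in CD livers. The resident Kupffer cell list had 3 of 13 at least 2-fold higher and 1 lower, a median of 0.47 and sums of 116.7 FPKM in HFD and 80.8 FPKM in CD. Cd5l and C1qb were among the higher ones, at 6.92 and 27.1 FPKM in HFD and 3.09 and 13.4 FPKM in CD livers, while Clec4f, the most particular Kupffer marker, was at 4.99 FPKM in HFD and 5.53 FPKM in CD livers. The remaining higher marker was Marco, at 0.401 FPKM in HFD and 0.0286 FPKM in CD livers. The lower one was Cd163, at 0.0370 FPKM in HFD and 0.289 FPKM in CD livers. The member median of 2.11 stood above both list medians. By summed level the members were at 54.7 FPKM in HFD and 19.6 FPKM in CD, a ratio of 2.79. The ratio of sums was 2.33 for the macrophage list, 1.44 for the Kupffer list and 3.52 for the neutrophil list described below.

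In the genetic model, 2 of 10 general macrophage markers with a ratio and 1 of 11 Kupffer markers were at least 2-fold higher in db than in misty livers. The medians were 0.34 and 0.14, and the summed macrophage level was 35.2 FPKM in db and 31.2 FPKM in misty. The macrophage markers past 2-fold were Plac8, at 0.738 FPKM in db and 0.0778 FPKM in misty, and Ccr2, at 0.575 FPKM in db and 0.192 FPKM in misty. The Kupffer marker was Timd4, at 0.858 FPKM in db and 0.124 FPKM in misty. Of the 10 macrophage log2 ratios, 8 were above 0 and 2 below. Adgre1, which encodes the macrophage antigen F4/80, was at 3.44 FPKM in db and 3.30 FPKM in misty livers, and its only transcript of the dietary table was not tested.

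Markers of other cell types also differed in the dietary model. All 6 neutrophil markers with a ratio, of 10, were at least 2-fold higher in HFD than in CD livers, with sums of 15.6 FPKM in HFD and 4.42 FPKM in CD, and S100a8, S100a9 and Retnlg were at 7.23, 5.09 and 1.79 FPKM in HFD and 1.72, 1.67 and 0.505 FPKM in CD livers. Ngp, tested but with no ratio, was at 0.217 FPKM in HFD and 0.00711 FPKM in CD livers. The defining neutrophil gene Ly6g was listed at 0 in both groups and not tested. Of the T, B and NK cell markers 5 of 10 were higher (sums of 4.61 FPKM in HFD and 2.35 FPKM in CD), and of the dendritic cell markers 1 of 6, H2-Ab1, at 19.4 FPKM in HFD and 6.96 FPKM in CD livers. Cholangiocyte markers, which bear on Spp1, were at least 2-fold higher for 5 of 8 genes, with sums of 13.0 FPKM in HFD and 9.14 FPKM in CD livers and Cd24a at 2.69 FPKM in HFD and 1.05 FPKM in CD. The defining duct gene Krt7 was listed at 0 in both groups. Stellate cell markers passed for 1 of 6 with a ratio, beside Timp1, tested but listed at 0.649 FPKM in HFD and near 0 in CD livers, and endothelial ones for 1 of 5, Vwf, at 2.22 FPKM in HFD and 1.10 FPKM in CD livers. Of 7 hepatocyte markers 2 were at least 2-fold lower in HFD, Fabp1 at 2959 FPKM in HFD and 6606 FPKM in CD and Cyp2e1 at 1.38 FPKM in HFD and 2.81 FPKM in CD. Cyp2e1 was listed at 3476 FPKM in db livers, so its line in the dietary model may miss the main level of the gene. What part these cell types had in the member values was not tested.

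In db over misty the same lists gave 0 of 3 neutrophil markers higher and 1 lower, and 0 of 6 cholangiocyte markers higher and 1 lower, Sox9, at 1.00 FPKM in db and 3.44 FPKM in misty livers. The summed cholangiocyte level was 6.31 FPKM in db and 11.0 FPKM in misty, with 2 of the 6 log2 ratios above 0 and 4 below. What part duct cells had in the Spp1 values was not tested. Dendritic cell markers passed for 1 of 3, T, B and NK cell markers for 0 of 2 with 1 lower, and endothelial markers for 0 of 4. Stellate cell markers passed for 2 of 8, among them Acta2 at 1.38 FPKM in db and 0.646 FPKM in misty livers. Of 8 hepatocyte markers 1 was at least 2-fold higher and 2 lower in db, with Ttr at 3.15 FPKM in db and 0.664 FPKM in misty, Apoa1 at 1244 FPKM in db and 3623 FPKM in misty and Fabp1 at 2612 FPKM in db and 6709 FPKM in misty livers. Ttr was listed at 2767 FPKM in HFD livers, so its line in the genetic model may likewise miss the main level of the gene. Albumin, the main hepatocyte transcript, was listed at 0 in all 4 groups, so a 0 in these tables can be a failed estimate.

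**Figure D4:**
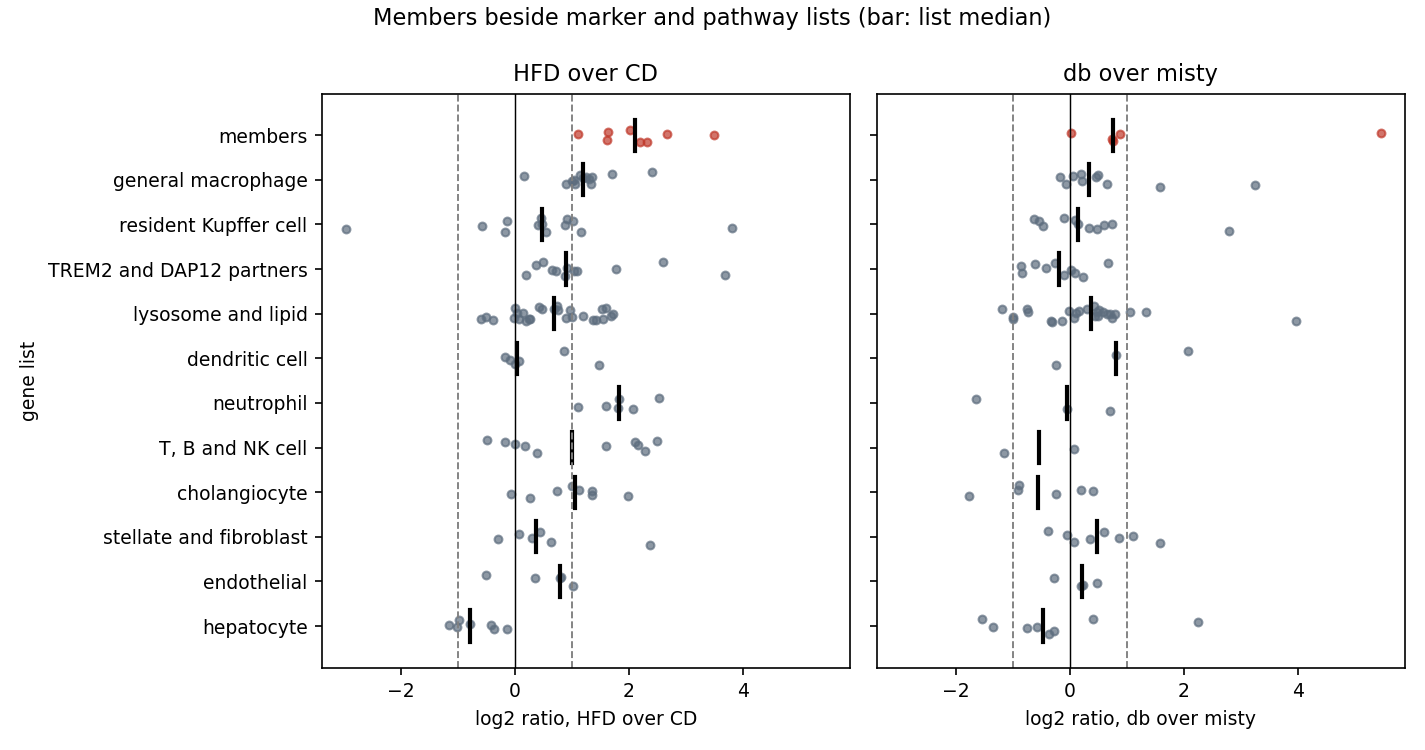
Log2 ratio of each tested gene with at least 0.01 FPKM in both groups (points) by list, HFD over CD on the left and db over misty on the right, with the list median as a bar and 2-fold lines dashed. In the dietary model the members' median (2.11) lies to the right of the neutrophil (1.82), general macrophage (1.20) and Kupffer cell (0.47) medians, and hepatocyte markers lie below 0 (median -0.79).

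The 5 genes whose pair of ratios lay nearest to the pair of member medians, of 4011 protein-coding genes at a mean of 1 FPKM or more in both tables, were S100a8, Ddit4, Ear2, Saa1 and Thbs1. That pair joins the median of 8 members in HFD over CD, 2.11, with that of 5 members in db over misty, 0.75. Its 2 values thus come from unlike sets, and nearness to the members tested in both tables was not computed. S100a8, the nearest, had log2 ratios of 2.07 in HFD over CD and 0.71 in db over misty, at 1.36 FPKM in db and 0.834 FPKM in misty livers. Ddit4 had 1.95 and 0.64, Ear2 1.92 and 0.63, Saa1 1.83 and 0.69, and Thbs1 2.45 and 0.72 in HFD over CD and in db over misty.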

How the data were processed

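The deposited tables, 1 for each model, list 1 FPKM per group as the authors' Cuffdiff run gave it, from 3 livers per the labels. As the methods of the study and the labels describe, the authors made strand-specific libraries after removal of ribosomal RNA, removed remaining ribosomal reads with Bowtie2 2.2.9, aligned to GRCm38 with STAR 2.6.0c and assembled transcripts with Cufflinks 2.2.1. By the methods, the HFD and CD cohort was prepared and sequenced at a different centre, with a different kit and read length, than the other cohorts. Depth per liver is unknown. Their columns of log2 ratio, test statistic, p and q hold the authors' own comparison and were not used, except the status that marks tested transcripts.

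A gene was given by its most abundant tested transcript, and the ratio of the 2 FPKM values was taken within a table where both were at least 0.01 FPKM. No pseudocount was added. Calls at 2-fold are descriptions. The script was tested on simulated data. From each of 18 lists, genes past 2-fold with a mean of 1 FPKM or more were named, at most 3 for a list and model. Adgre1, Atp6v0d1, Clec4f, Marco, Cd163, Plac8, Timd4, Lepr, Ly6g, Krt7, albumin and the 5 list genes without a ratio were named outside this rule, after their values were seen. So were the values of Ccr2 and Cyp2e1 in the genetic model and of Ttr in the dietary model. The members and lists were chosen with earlier results of these data known. Python 3.11.15, pandas 2.3.3 and numpy 2.4.6 were used.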

Additional observations from a re-analysis of the deposited data

How the results depend on the processing

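No paired analysis was possible because each group has 1 pooled value, and for the same reason no liver could be left out. Of 140 values under alternative settings, 115 changed by less than 1.5-fold and kept their sign. Of the log2 ratios and medians, 13 moved further and 4 changed sign. Of the counts of members, 6 became lower and 2 higher by more than that. The 8 members at least 2-fold higher in HFD than CD became 4 of 8 with 1 FPKM added to both values, with a median of 1.01 (1.69% of all genes under the same setting), 5 of 5 at a mean of 1 FPKM or more (5.47%), 5 of 8 at 4-fold (2.55%), and 5 of 5 at loci on the gene's own strand only (9.03%). The 1 member of 5 at least 2-fold higher in db than misty became 2 of 7 when all listed transcripts were summed (9.66% of all genes), 0 of 2 at a mean of 1 FPKM or more (7.35%), 4 of 5 at 1.5-fold (17.1%), and 0 of 1 at loci on the own strand (9.72%), where the median was 0.0083 (Tyrobp). The log2 ratio of Tyrobp in db over misty turned to -0.0028 and -0.014 when tested or all listed transcripts were summed, to -0.051 when centred on the median of all genes, and to -0.49 at opposite loci. The strand settings were chosen after seeing the data. The absence of a spread between livers and of depth limits every value.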
